A study of Mus musculus with 6 samples.

Results

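CCR2 and the monocyte-attracting chemokines Ccl2, Ccl7, Ccl8 and Ccl12 were examined in bone marrow-derived macrophages labelled GPS2KO or WT. The 5 genes were chosen as the receptor and its Ccl2-type ligands, known targets of repression by GPS2, and they are 5 of 18820 tested genes. Each had 1 probe set with a single gene symbol, so no choice between probe sets was needed. The samples were 3 GPS2KO and 3 WT cultures, each on 1 Affymetrix array. The donors were male mice aged 12 to 16 weeks. All marrow cells were grown for 7 days in medium with 30% L929 conditioned medium, the supernatant of a fibroblast line that supplies macrophage growth factor, and none was stimulated. The labels give the genotype as KO or MKO and state neither the deleted exons nor the driver of the deletion. They do not tie an array to a separate mouse, so the p-values measure the spread between these cultures, which may be technical. Values are log2 signals after RMA, and a change is GPS2KO minus WT.

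CCR2 is a G protein-coupled receptor that is best known on classical monocytes. Its ligands draw these cells out of the bone marrow and into inflamed tissue, and macrophages that make the ligands thereby recruit further monocytes. Monocytes usually lose CCR2 as they mature into macrophages. In mice, Ccl2 (MCP-1), Ccl7 (MCP-3) and Ccl12 (MCP-5) are ligands of CCR2, whereas mouse Ccl8 is known mainly as a ligand of another receptor, CCR8. GPS2 is a subunit of the nuclear co-repressor complex with HDAC3, which restrains inflammatory genes in resting macrophages.

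In GPS2KO macrophages Ccl2, Ccl7 and Ccl12, the genes named above as mouse ligands of CCR2, rose and the receptor fell. Ccl7 rose 3.06-fold, Ccl2 1.77-fold and Ccl12 1.42-fold, and Ccr2 fell 1.96-fold, to 51.1% of the WT signal. Rises were not confined to ligands of CCR2, as 3 of 15 other CC chemokines tested rose and 1 fell (26.7% passed). Ccl8, known mainly as a ligand of CCR8, did not pass the test. Its mean signal was weak in both groups (4.80 in GPS2KO and 4.87 in WT), so a change could be hidden. These calls do not sort the genes by receptor. Thus 4 of the 5 genes passed an adjusted p of 0.05 (limma with Benjamini-Hochberg adjustment over all tested genes), where 6.72% of all tested genes did. By direction, 2.90% of all genes rose and 3.83% fell, 545 and 720 genes. With arrays centred on their medians, the split was 460 rises to 1061 falls, and the calls of the 5 genes stayed as they were. The arrays of the groups did not overlap for 4 of the 5 genes, against 27.1% of all tested genes. For each of these 4, an exact 2-sided permutation test of the group means gave p = 0.1, and no smaller p is possible with 20 ways to arrange 6 arrays.

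The Gps2 gene served as a check of genotype. Gps2 had 10.29, 10.16 and 10.19 on the GPS2KO arrays and 10.94, 10.93 and 11.00 on the WT arrays. Every GPS2KO array lay below every WT array, and Gps2 was at 59.7% of the WT signal (adjusted p = 0.000256, limma). Whether its probes lie in the deleted part is not given in the sources used here. Of 7 tested genes of the co-repressor complex, Gps2 alone passed, and neither its deacetylase gene Hdac3 (-0.08, adjusted p = 0.298) nor Coro2a (-0.18, adjusted p = 0.0713) did. With arrays there is no depth to report, and precision is limited by their number. Correlations across genes were 0.9989 to 0.9991 within groups and 0.9977 to 0.9981 between groups, so no array stood apart.

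Ccl7, a monocyte chemoattractant, changed most among the members. It had 11.99, 12.01 and 11.99 on the GPS2KO arrays, against 10.28, 10.38 and 10.48 on the WT arrays. The GPS2KO values were almost the same on all arrays, and the lowest of them was 1.51 above the highest WT value. The means were 11.99 ± 0.01 in GPS2KO and 10.38 ± 0.10 in WT (SD, n = 3 each). The change was 1.61 (SE 0.0546, 95% confidence interval 1.49 to 1.74; limma adjusted p = 1.96e-05), the third largest rise of all tested genes.

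Ccl2, the best-known ligand of CCR2, had 12.33, 12.31 and 12.28 on the GPS2KO arrays and 11.49, 11.43 and 11.52 on the WT arrays. The groups lay well apart, with a gap of 0.77 between the nearest arrays. The means were 12.31 ± 0.02 in GPS2KO and 11.48 ± 0.04 in WT (SD, n = 3 each). Ccl2 rose by 0.83 (SE 0.0404, 95% confidence interval 0.73 to 0.92; limma adjusted p = 0.000112).

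Ccl12, a ligand of CCR2 described in mice, had 6.71, 6.83 and 6.74 on the GPS2KO arrays, against 6.43, 6.27 and 6.07 on the WT arrays. The WT arrays spread more than the GPS2KO arrays, and the groups were 0.28 apart at their nearest. The means were 6.76 ± 0.06 in GPS2KO and 6.26 ± 0.18 in WT (SD, n = 3 each). Ccl12 rose by 0.50 (SE 0.0858, 95% confidence interval 0.30 to 0.70; limma adjusted p = 0.0137). This call ended without GPS2KO replicate 2 (change 0.47, adjusted p = 0.0568), and also when all 35556 probe sets entered the fit (adjusted p = 0.0608).

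Ccl8 had 4.97, 4.60 and 4.83 on the GPS2KO arrays and 4.71, 5.13 and 4.76 on the WT arrays. These values overlapped. The means were 4.80 ± 0.19 in GPS2KO and 4.87 ± 0.23 in WT (SD, n = 3 each), both under 5.49, the 40th percentile of the mean signals of all tested genes, called the dim limit here. The change was -0.07 (SE 0.128, 95% confidence interval -0.37 to 0.23; limma adjusted p = 0.818), so the interval admits a fall of up to 1.29-fold and a smaller rise. Background in dim signals compresses fold changes, and no detection calls came with the values.

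Ccr2, the receptor, had 7.35, 7.23 and 7.23 on the GPS2KO arrays, against 8.20, 8.17 and 8.33 on the WT arrays. All GPS2KO arrays lay below all WT arrays, by at least 0.82. The means were 7.27 ± 0.07 in GPS2KO and 8.24 ± 0.09 in WT (SD, n = 3 each). Ccr2 fell by 0.97 (SE 0.0575, 95% confidence interval -1.10 to -0.84; limma adjusted p = 0.000194), the 18th largest fall of all tested genes. In a bulk culture, fewer cells that carry Ccr2 and less Ccr2 RNA per cell cannot be told apart.

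**Figure D1:**
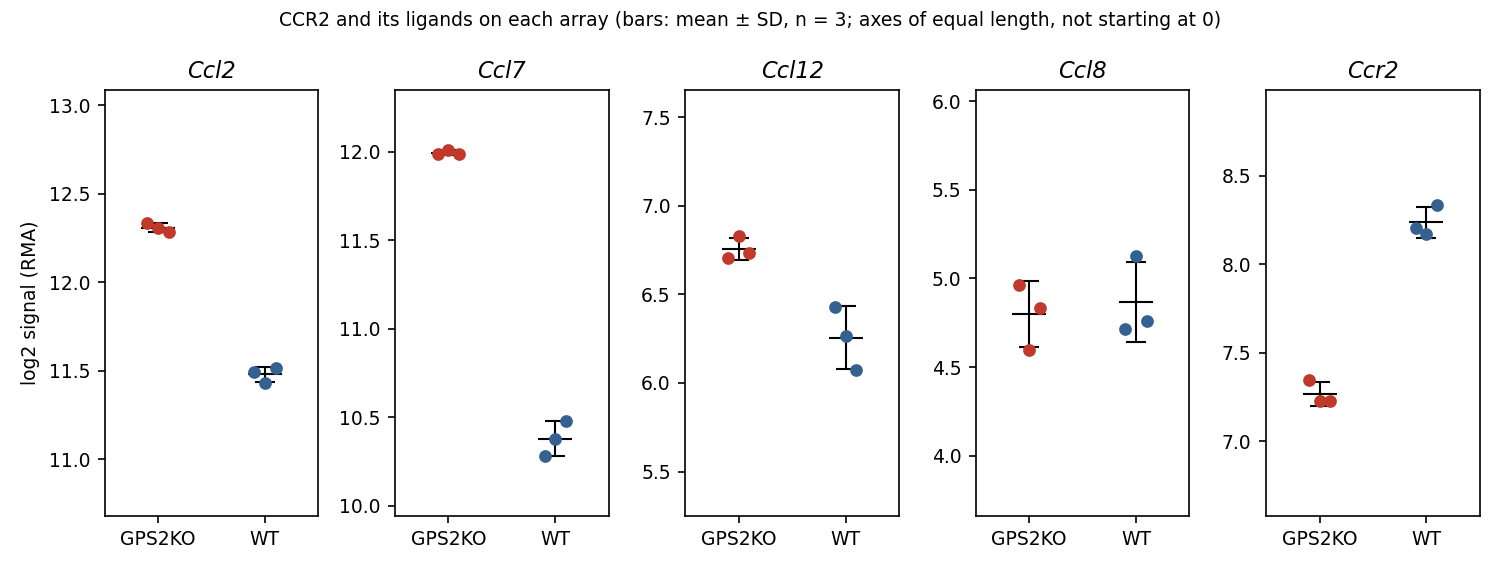
Log2 RMA signal of Ccl2, Ccl7, Ccl12, Ccl8 and Ccr2 on each GPS2KO array (red) and WT array (blue), with the group mean and SD (n = 3 each), on axes of equal length that do not start at 0. The Ccl2, Ccl7 and Ccl12 points of GPS2KO all lie above those of WT, those of Ccr2 all lie below, and those of Ccl8 overlap.

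The measured rises of the ligands were of unequal size, which is given as a description. Within an array the log2 difference Ccl2 minus Ccl7 was 0.31 ± 0.03 in GPS2KO and 1.10 ± 0.10 in WT (SD, n = 3 each), so Ccl7 rose 1.73-fold more than Ccl2. The difference Ccl7 minus Ccl12 was 5.24 ± 0.05 in GPS2KO and 4.12 ± 0.28 in WT, a 2.16-fold larger rise of Ccl7. Ccl2 minus Ccl12 was 5.55 ± 0.07 in GPS2KO and 5.23 ± 0.20 in WT, a 1.25-fold larger rise of Ccl2. Ligand and receptor moved in opposite directions: Ccl7 minus Ccr2 was 4.73 ± 0.07 in GPS2KO and 2.14 ± 0.07 in WT, and Ccl2 minus Ccr2 was 5.04 ± 0.05 in GPS2KO and 3.24 ± 0.05 in WT. Such a difference compares changes of signal, not the levels of the genes, since probe sets differ in response. The changes may differ in compression too, as Ccl12 (mean 6.51) was much weaker than Ccl2 (11.89) and Ccl7 (11.19). This was not tested. In all 10 pairs the groups did not overlap, and each exact 2-sided permutation test gave p = 0.1 (0.1 adjusted over the 10 pairs). This is the smallest p possible, so the test could not pass 0.05 for any pair. For a ligand that rose set against Ccr2, the lack of overlap follows from the values of each gene alone.

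**Figure D2:**
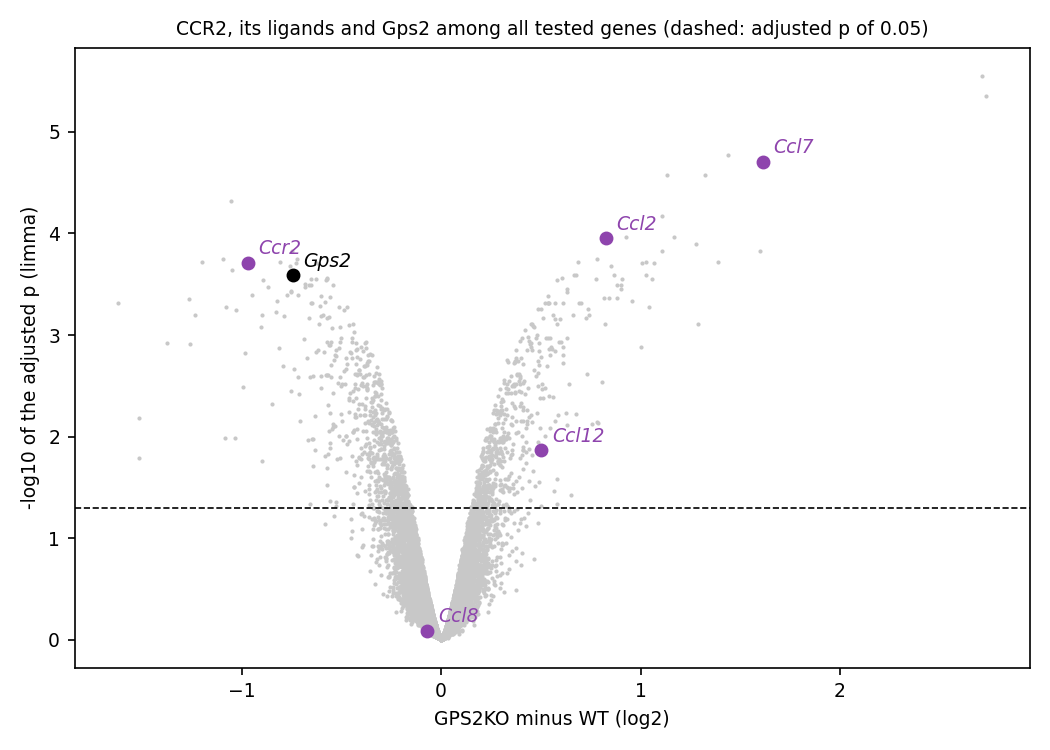
Change of each of the 18820 tested genes (GPS2KO minus WT, log2) against -log10 of its limma adjusted p, with the dashed line at 0.05. Ccl7 (1.61) lies far right and Ccl2 (0.83) less far right. Ccr2 (-0.97) lies left near Gps2 (-0.75), Ccl12 (0.50) lies above the line and Ccl8 (-0.07) at the base.

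The 4 ligand genes lie in 1 chemokine cluster on chromosome 11, in the order Ccl2, Ccl7, Ccl11, Ccl12, Ccl8 (RefSeq, GRCm38.p6; the array's build is not given in the sources used here). Only their order is used. Of the 11 named protein-coding genes between and around them, 5 on each side, 0 passed the test. Over all tested genes 6.72% passed, and 6 of the 11 were dim. The count therefore cannot show that the rises were confined to the ligand genes. Ccl11, the eosinophil chemokine eotaxin that sits between Ccl7 and Ccl12, averaged 5.10 in GPS2KO and 5.16 in WT (change -0.06, SE 0.0734, limma adjusted p = 0.688) and was dim. Ccl1, a ligand of CCR8 and the first gene after Ccl8, averaged 4.29 in GPS2KO and 4.51 in WT and was dim too. Its change of -0.22 (SE 0.053) had adjusted p = 0.0528, and it passed after quantile normalization (0.0384), after median centring (0.0366) and without WT replicate 3 (0.0455). The rises in the cluster were thus those of Ccl2, Ccl7 and Ccl12, with a gene that did not pass between Ccl7 and Ccl12.

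The stretches of genome just before the start sites of Ccl12 and Ccl8 are shown because Ccl12 passed the test and its neighbour Ccl8 did not. Ccl8 was dim in both groups, and the call of Ccl12 ended without GPS2KO replicate 2. These calls therefore do not establish that the genes responded differently. Promoter windows from RefSeq (GRCm38.p6) were matched for 3 of the 5 genes, Ccl12, Ccl8 and Ccr2, and not for Ccl2 and Ccl7. The 250 bases upstream of Ccl12 are chr11:82101595-82101844 and those of Ccl8 are chr11:82114935-82115184, both on the plus strand and written 5′ to 3′. Capitals mark matches to any of the motifs searched.
Ccl12: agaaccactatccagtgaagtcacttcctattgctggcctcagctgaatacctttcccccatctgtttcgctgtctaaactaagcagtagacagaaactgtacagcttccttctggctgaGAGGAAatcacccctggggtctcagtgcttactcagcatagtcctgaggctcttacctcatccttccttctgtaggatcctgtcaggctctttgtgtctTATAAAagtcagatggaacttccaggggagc
Ccl8: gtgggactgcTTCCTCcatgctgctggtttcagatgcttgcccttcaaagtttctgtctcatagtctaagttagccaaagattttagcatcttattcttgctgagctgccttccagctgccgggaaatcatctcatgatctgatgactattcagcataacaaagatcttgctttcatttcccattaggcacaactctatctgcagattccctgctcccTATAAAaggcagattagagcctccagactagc

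Both windows hold the letters TATAAA of a TATA box, beginning at position -31 from the start in Ccl12 and -32 in Ccl8. This motif occurs on either strand in 12.4% of all 32851 windows. Both also hold GAGGAA, a core bound by the myeloid factor PU.1, on the given strand from position -130 in Ccl12 and on the opposite strand from position -240 in Ccl8. That motif occurs in 23.3% of windows. The other motifs searched on both strands were NF-kappaB (by its consensus), AP-1 (TGANTCA), the gamma-activated site (TTCNNNGAA), the interferon-stimulated response element (GAAANNGAA) and C/EBP (TTGCNNAA). They occur in 3.9%, 6.75%, 7.02%, 7.13% and 9.56% of windows. None matched in these 2 windows, which says only that these letters are not in them. The Ccr2 window lies within the annotated gene, so it is not printed, and its only match was to the interferon-stimulated response element. The matched motifs were thus alike in Ccl12 and Ccl8.

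Ccr2 lies on chromosome 9 among other chemokine receptors. The gene order before it is Ccr1, Ccr1l1, Ccr3. Of 8 named protein-coding neighbours, 6 were tested, and 1 rose and 1 fell. The others are not analysed here. Ccr1, a receptor of Ccl3, Ccl5 and Ccl7, had 8.80, 8.71 and 8.59 on the GPS2KO arrays and 7.64, 7.76 and 7.62 on the WT arrays. It rose by 1.03 (SE 0.066, 2.04-fold, limma adjusted p = 0.000258), with no overlap of the groups. Ccr3, the eotaxin receptor of eosinophils, had 7.05, 7.02 and 6.78 on the GPS2KO arrays and 7.80, 7.61 and 7.82 on the WT arrays. It fell by 0.79 (SE 0.0868, 1.73-fold, limma adjusted p = 0.00204), again without overlap. Ccr1l1, which lies between Ccr1 and Ccr3, was dim and did not pass (-0.26, adjusted p = 0.236). Thus Ccr2 and the adjacent Ccr3 fell while Ccr1 rose. Chemokine receptor genes resemble each other, as do Ccl2-type chemokine genes, and whether their probes share signal was not tested.

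**Figure D3:**
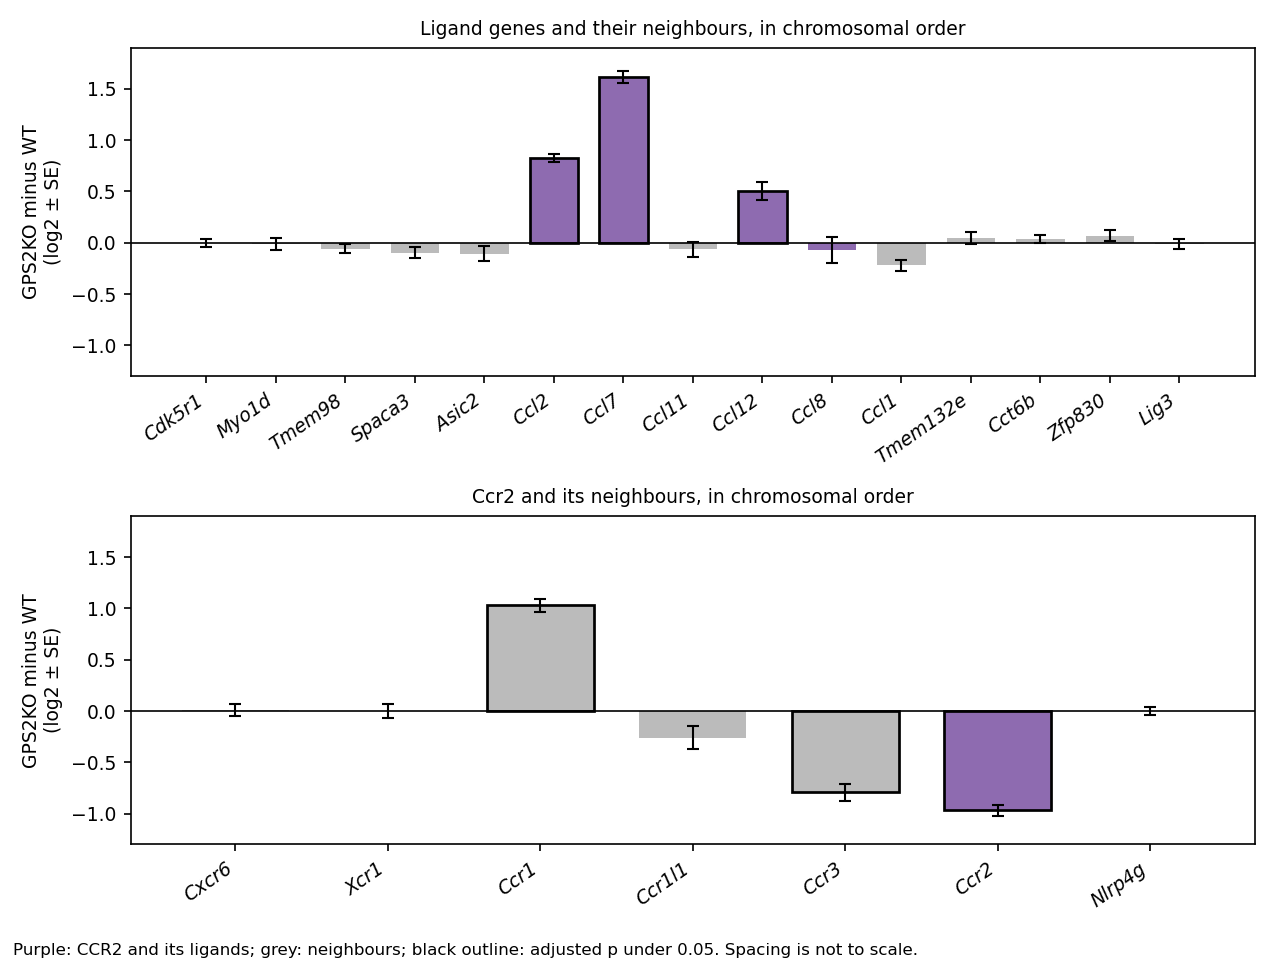
Change (GPS2KO minus WT, log2, with limma's SE) of the tested genes in chromosomal order around the ligand genes (upper panel) and around Ccr2 (lower panel), with CCR2 and its ligands purple, neighbours grey and a black outline for an adjusted p under 0.05. Ccl2, Ccl7 and Ccl12 stand out upward from neighbours near 0, and Ccr2 lies beside Ccr3, which also fell, and near Ccr1, which rose.

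Among 15 other CC chemokines tested, 3 rose, 1 fell and 11 did not pass (26.7% passed, against 6.72% of all tested genes). Their median change was -0.03, against -0.01 over all tested genes, and 7 were dim. Ccl6, a myeloid chemokine, had 12.19, 12.15 and 12.21 on the GPS2KO arrays and 10.77, 10.67 and 10.80 on the WT arrays. It rose by 1.44 (SE 0.0459, 2.71-fold, limma adjusted p = 1.68e-05). Ccl4 and Ccl3, inflammatory chemokines of macrophages, rose as well. Ccl4 had 9.19, 8.98 and 9.01 in GPS2KO and 8.21, 8.09 and 8.24 in WT, a rise of 0.88 (SE 0.0664, adjusted p = 0.000434). Ccl3 had 12.61, 12.55 and 12.54 in GPS2KO and 12.23, 12.14 and 12.23 in WT, a rise of 0.36 (SE 0.0438, adjusted p = 0.00304). Ccl5, a chemoattractant of T cells and monocytes, fell. It had 6.94, 6.77 and 6.72 in GPS2KO and 7.25, 7.54 and 7.33 in WT, a change of -0.56 (SE 0.0863, adjusted p = 0.0088). The groups did not overlap for any of these 4.

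Of 13 other chemokine receptors tested, 1 rose, 2 fell and 10 did not pass (23.1% passed, against 6.72% of all tested genes). The median change was -0.09, and 7 were dim. The rise was that of Ccr1, and the falls were those of Ccr3 and Cx3cr1. Cx3cr1, the fractalkine receptor of resident and nonclassical monocytes, had 11.42, 11.41 and 11.47 in GPS2KO and 11.99, 11.96 and 11.98 in WT. It fell by 0.54 (SE 0.0376, limma adjusted p = 0.000323). Ccr2 was therefore 1 of 3 chemokine receptors that fell.

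**Figure D4:**
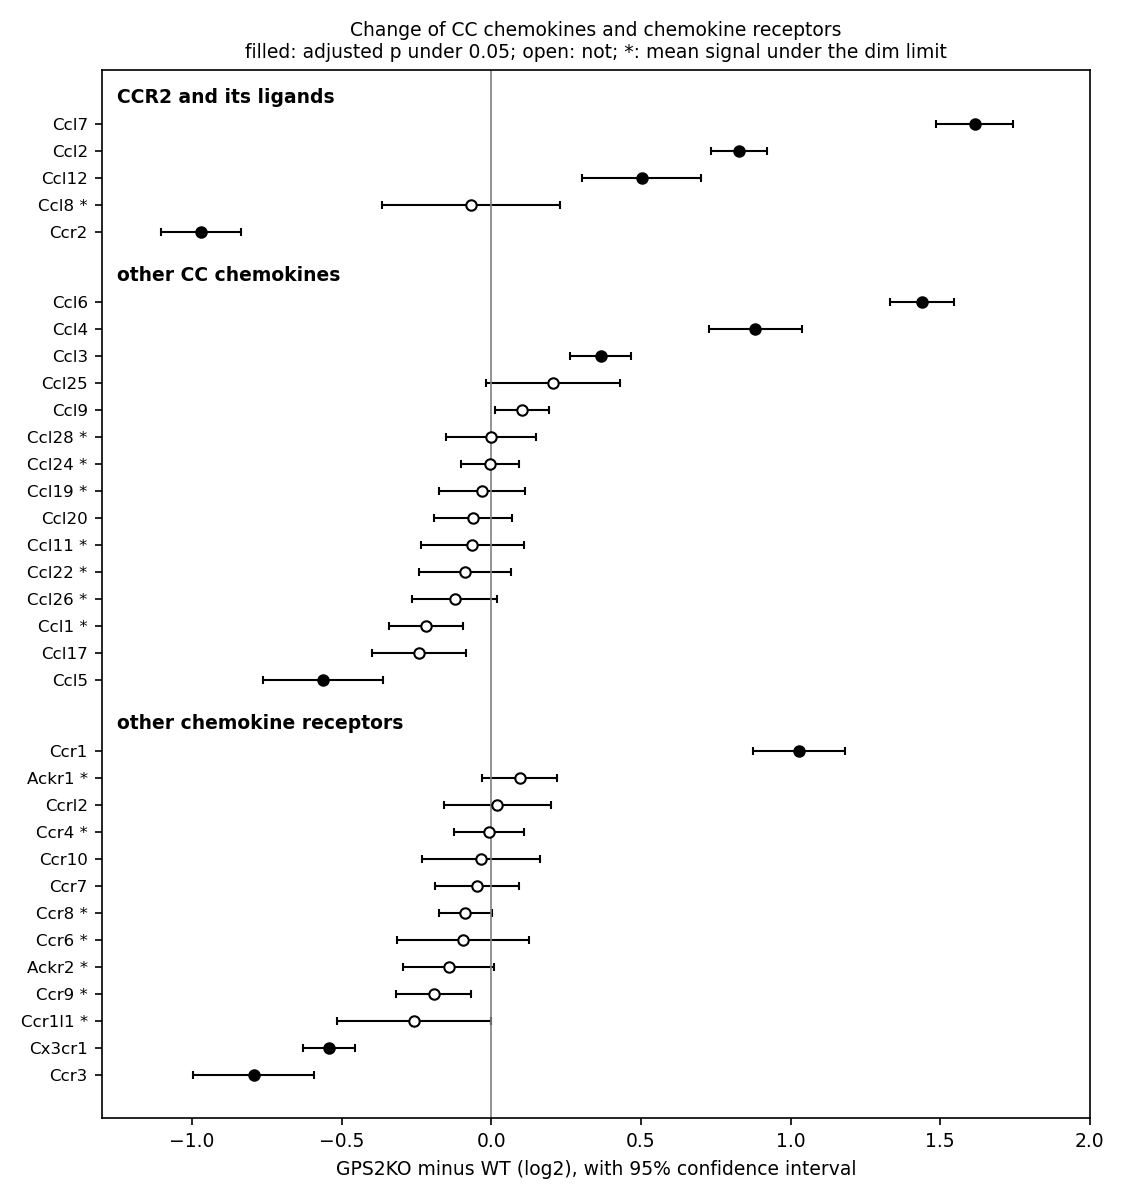
Change (GPS2KO minus WT, log2) with its 95% confidence interval for CCR2 and its ligands, the 15 other CC chemokines and the 13 other receptors tested, with filled points for an adjusted p under 0.05, open points otherwise and an asterisk for genes under the dim limit of 5.49. Ccl7 (1.61) and Ccl6 (1.44) lie farthest right, and Ccr2 (-0.97) lies farthest left.

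Downstream of CCR2, the receptor acts through inhibitory G proteins, phospholipase C beta and phosphoinositide 3-kinase gamma, and is silenced by receptor kinases and arrestins. Of 24 such genes tested, 4 fell, 1 rose and 19 did not pass, with a median of -0.04. Thus 20.8% passed, against 6.72% of all tested genes. Plcb2, a phospholipase C beta, averaged 8.74 ± 0.05 in GPS2KO and 9.35 ± 0.07 in WT (SD, n = 3 each), a fall of 0.60 (SE 0.0509, limma adjusted p = 0.000653). Grk3, a receptor kinase, averaged 6.24 ± 0.13 in GPS2KO and 6.80 ± 0.02 in WT (-0.57, SE 0.0648, limma adjusted p = 0.00249). Pik3r5, a regulatory subunit of phosphoinositide 3-kinase gamma, fell by 0.34 (SE 0.047, adjusted p = 0.00578). Arrb1, which encodes an arrestin, fell by 0.21 (adjusted p = 0.0261), and the G protein subunit Gng2 rose by 0.19 (adjusted p = 0.0214). Both of these last calls ended without any 1 of the 6 arrays, at adjusted p of 0.0512 to 0.0868 for Arrb1 and 0.0564 to 0.0851 for Gng2, so without any 1 array 3 genes fell and 0 rose.

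Of 18 transcription factors known to act at Ccl2 that were tested, 5 fell, 1 rose and 12 did not pass, with a median of -0.06. Thus 33.3% passed, against 6.72% of all tested genes. Relb, a subunit of NF-kappaB, averaged 7.75 ± 0.06 in GPS2KO and 8.36 ± 0.05 in WT (-0.61, SE 0.0484, limma adjusted p = 0.000521; SD, n = 3 each). Nfkb2, another subunit, fell by 0.40 (adjusted p = 0.00131). The liver X receptor gene Nr1h3 fell by 0.40 (adjusted p = 0.00299) and the AP-1 gene Fos by 0.32 (adjusted p = 0.00771). Pparg, a lipid-sensing receptor, fell by 0.18 (adjusted p = 0.0461), and leaving out any 1 of the arrays ended this call (0.0684 to 0.141). The rise was that of Cebpa, a myeloid factor, by 0.39 (adjusted p = 0.00354). Rela, which encodes the p65 subunit of NF-kappaB, averaged 10.70 in GPS2KO and 10.79 in WT and did not pass (-0.08, adjusted p = 0.259). Jun did not pass either (0.14, adjusted p = 0.0675). At the RNA level the factors that passed were therefore mostly lower in GPS2KO. The list does not separate factors that raise Ccl2 from those that lower it, and their part in its change was not tested.

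Ccr2 is itself a marker of classical monocytes. Of 13 other classical monocyte markers tested, 2 rose, 4 fell and 7 did not pass, with a median of -0.10. Thus 46.2% passed, against 6.72% of all tested genes. The falls were those of the lectin Clec4e (-1.05, limma adjusted p = 0.000227), the integrin chain Itgal (-0.46, adjusted p = 0.00146), Ifitm6 (-0.44, adjusted p = 0.00353) and Ms4a4c (-0.67, adjusted p = 0.0109). Ms4a4c lost its call when all probe sets entered the fit (adjusted p = 0.0534), which left 3 falls. The rises were those of coagulation factor gene F13a1 (0.73, adjusted p = 0.000685) and the glutathione transferase gene Mgst1 (0.41, adjusted p = 0.00195). Of 9 markers of nonclassical monocytes tested, 3 rose and 3 fell (66.7% passed). The rises were those of the lipid carrier Fabp4 (1.17, adjusted p = 0.000108), the integrin chain Itgax (1.00, adjusted p = 0.00132) and the scavenger receptor Cd36 (0.24, adjusted p = 0.00991). The falls were those of the sialophorin gene Spn (-0.78, adjusted p = 0.000408), Cx3cr1 and Pparg. Neither list of monocyte markers moved in 1 direction.

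Markers of other cells were set beside these results, since stromal and endothelial cells can also make Ccl2 and Ccl7. Of 9 macrophage markers tested, 8 lay above the dim limit, Lyz2 brightest. Mertk (0.24) and Itgam (0.19) rose and 0 fell. Of 12 fibroblast and stromal markers, 11 lay above the dim limit, Acta2 brightest (mean 13.02, against 13.36 for Lyz2). By mean signal over all tested genes, Acta2, Sparc and Col1a1 lay at percentiles 99.8, 99.6 and 97.1, and Thy1 at 45.4. The summed signal of the 12 was 14.84 to 14.85 on the GPS2KO arrays and 14.92 to 14.93 on the WT arrays (log2 of the sum). The brightest markers weigh most in this sum. In that list Pdgfrb, Thy1 and Col1a1 fell and Dcn rose. Of 7 endothelial markers, 6 lay above the limit. Their sum was 9.69 to 9.81 on the GPS2KO arrays and 9.47 to 9.56 on the WT arrays, and Emcn (0.56) and Cdh5 (0.35) rose. In the macrophage, stromal and endothelial lists 22.2%, 33.3% and 28.6% of the tested markers passed, against 6.72% of all tested genes. The part of stromal and endothelial cells in the changes of the chemokines was not tested.

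The remaining marker lists were mostly dim. Neutrophil markers were dim for 6 of 9, with sums of 9.05 to 9.17 on the GPS2KO arrays and 9.10 to 9.17 on the WT arrays, and Ngp rose. Dendritic cell markers were dim for 6 of 8 and 0 passed. Of 8 T and NK cell markers 7 were dim, and the other, Cd4, rose by 0.43. Their sum was 9.49 to 9.57 on the GPS2KO arrays and 9.20 to 9.22 on the WT arrays. B cell markers were dim for 3 of 5, with sums of 9.39 to 9.44 in GPS2KO and 9.58 to 9.70 in WT, and Cd79b fell. Mast cell and basophil markers were dim for 5 of 6 and the 3 erythroid markers all were, with 0 calls in both. Several of these marker calls did not hold with 1 array left out, where fewer samples enter. Itgam lost its call without any 1 array (highest adjusted p = 0.1) and Col1a1 without any but WT replicate 1 (0.0796). Dcn lost it without GPS2KO replicate 1 or 2 or WT replicate 1 or 2 (0.115), and Cdh5 without GPS2KO replicate 1 or 2 or WT replicate 1 or 3 (0.101). Ngp lost it without GPS2KO replicate 1 or 2 or WT replicate 2 or 3 (0.0617), and Thy1 without GPS2KO replicate 1 or WT replicate 1 or 3 (0.0562). Pdgfrb, Mertk, Emcn, Cd4 and Cd79b kept theirs whichever array was left out.

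The genes whose pattern over the 6 arrays was most like each member were found by the root mean square distance of log2 values, after each gene was centred on its mean. Nearest to Ccl2 were Npl, a sialic acid lyase (distance 0.0341), Clec7a, the receptor of fungal beta-glucan (0.0581), and the chemokine Ccl4 (0.0631). Nearest to Ccl7 were Mamdc2 (0.102), Ccl6 (0.11) and Tnfrsf26, of the tumour necrosis factor receptor family (0.127). For 2 of the 3 ligands that rose, another CC chemokine was thus among the 3 nearest genes. Nearest to Ccl12 were Emb, an adhesion protein (0.0478), Pgap1, which remodels lipid anchors (0.0503), and St8sia4, a sialyltransferase (0.0672). Nearest to Ccr2 were Gpr31b (0.0514), the receptor gene Notch4 (0.0529) and the protease inhibitor Serpinb6b (0.0836), which fell by 0.90, 0.95 and 1.08. The 6 arrays share 1 normalization and 1 split into groups, so these distances are a description.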

How the data were processed

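RNA from 3 GPS2KO and 3 WT macrophage cultures was measured on Affymetrix arrays. The deposited values are log2 intensities per probe set, made by the authors with RMA in the R package oligo, per the submitters' processing notes. Versions and build are not given in the sources used here. RMA forces arrays to a common distribution, which hides any shift of most genes together. The values themselves point to the log2 scale, since they ran from 2.42 to 13.99 with array medians of 5.57 to 5.60.

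Of 35556 probe sets, 21218 had 1 gene symbol in GEO's platform annotation, 1881 had several and 12457 were unnamed here; 21185 of the 21218 matched RefSeq by gene number. For genes with several probe sets (1386), the one with the highest mean stood for the gene, leaving 18820. Each was tested with limma 3.58.1 (R 4.3.3; lmFit, eBayes, group as the only term, 2-sided, Benjamini-Hochberg over all genes, threshold 0.05). Exact permutation tests used scipy 1.17.1. The limma step was tested on simulated data. Nothing was filtered.

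The members, gene lists and tests were chosen with earlier results of these data known. The rule named all members, Gps2, other CC chemokines and receptors past the threshold, up to 4 genes of each other list by smallest p, neighbours past the threshold and the 3 genes nearest to each member. A further 19 genes were named after their values were seen, among them Ccl1, Ccl11, Arrb1, Fos, Pparg, Ms4a4c, Ifitm6, Cd36 and the cell type markers, as were Rela, Jun and Ccr1l1. Members of the lists that could not be tested are not analysed here, and no protein sequences were used. Alternatives were quantile normalization, median centring, a variance trend, leaving out dim genes, the mean of a gene's probe sets, all probe sets, a replicate block and leaving out each array.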

Additional observations from a re-analysis of the deposited data

How the results depend on the processing

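The changes of Ccl2, Ccl7 and Ccr2 kept their direction and their call under all 13 alternatives, with changes of 0.80 to 0.85, 1.57 to 1.67 and -1.01 to -0.92 and highest adjusted p of 0.00235, 0.000823 and 0.00365. Ccl12 stayed higher in GPS2KO under all 13 (0.41 to 0.59). Its call was lost with all probe sets in the fit (0.50, adjusted p = 0.0608) and without GPS2KO replicate 2. Ccl8 ran from -0.15 to 0.06 with 1 array left out, turning positive without GPS2KO replicate 2 (0.0322) and without WT replicate 2 (0.0605), and passed under none of the 12 alternatives that tested it. It was not tested without dim genes. Gng2, Arrb1, Pparg, Ms4a4c, Itgam, Col1a1, Dcn, Thy1, Cdh5 and Ngp also lost their calls with all probe sets in the fit, and all of these but Ms4a4c and Ngp lost them with the replicate block.

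Numbers of genes depended more on the setting. Rises (545) and falls (720) were 808 and 1154 without dim genes, 926 and 1248 under a variance trend, 275 and 343 of the same genes with all probe sets in the fit, and 322 to 376 and 419 to 503 with 1 array left out, where fewer samples enter. Among the members 2 or 3 rose with 1 array left out. The falls of other CC chemokines were 2 after quantile normalization, 2 after median centring and 2 without dim genes, and 1 to 2 with 1 array left out. Rises downstream of CCR2 were 2 with a variance trend, 2 without dim genes and 0 with all probe sets, 0 with the replicate block and 0 with any 1 array left out (falls 3). Rises of factors acting at Ccl2 were 2 without dim genes and 2 under a variance trend. Falls of nonclassical monocyte markers were 2 with any 1 array left out. Falls in the GPS2 complex, 1 with Gps2 alone, were 2 without dim genes, 2 after median centring and 2 under a variance trend, where Coro2a passed too. The cause was not tested.

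The replicate numbers share only a number: deviations of same-numbered arrays correlated at 0.00348, 0.0258 and -0.00604, and not every array correlated best with its own number. With the replicate block 370 genes rose and 492 fell, and adjusted p was 0.00224 for Ccl2, 0.00064 for Ccl7, 0.028 for Ccl12, 0.84 for Ccl8 and 0.00224 for Ccr2. Signal over background limits Ccl8, Ccl11 and Ccl1, which were dim.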
